A study of Drosophila melanogaster with 4 samples.

Results

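The X chromosome of male Drosophila melanogaster wing discs was followed as 2220 bins of 10 kb. The bins were chosen by position alone, as all non-overlapping 10-kb steps of chromosome X (dm3 assembly, XHet scaffold left out) that held at least 50 measured probes, and 16 shorter-covered steps were left out. They are 2220 of the 14699 such bins of the series and hold nearly all of the 297856 X probes. The assay was ChIP-chip, where DNA recovered from crosslinked chromatin with an antibody against Myb (Cy5) is hybridized beside input DNA (Cy3) to a tiled array. The tissue was the wing imaginal disc, from which the adult wing and part of the thorax form, of yw67 males in the third larval instar. The yw67 strain (y1 w67c23) is a laboratory line with a yellow body and white eyes, the control genotype of the study, with no Myb mutation among its labelled alleles. There was 1 condition, with 2 biological replicates on 2 array designs, and X lies on the second design together with 3R, the arm used for comparison. Discs were crosslinked for 15 min with 1.8% formaldehyde, the DNA was sheared to 400 bp, and the sample records give 1000 discs per immunoprecipitation, pooled from many larvae. On both arrays input was Cy3 and the immunoprecipitate was Cy5, so a dye effect cannot be told apart from binding.

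Male flies carry a single X and a pair of each autosome. In flies the MSL complex coats the male X and raises transcription from it, and its acetyltransferase Mof acetylates histone H4 there. Myb is a sequence-specific DNA-binding protein and the subunit of the dREAM complex that is needed for expression of genes for mitosis, while other subunits such as Mip130 take part in repression as well.

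The value of a bin is the mean over its probes (median 136) of log2 immunoprecipitate over input, with 0 set at the median of all genome probes of the array. By the positions in the files every X probe spans 50 bp, where the methods describe a longer probe. Input level is the log2 input signal, centred the same way. The input signal was well above background at 98.6% (replicate 1) and 97.7% (replicate 2) of the genome spots of the second design. Saturated immunoprecipitate spots made up 1.04% and 0.0328%, respectively. Since there were 2 replicates, every spread below rests on n = 2.

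The study's quantitative PCR oligos at X-linked sites mark single sites on the X. Those beside genes described below are shown to identify these sites, together with the pair at CG15601-HUWE1. All 12 X-linked pairs (24 oligos of 18 to 30 bases) were searched on both strands for TAACGG as well as for its variant TAACTG, and in the same way for CAACGG along with CAACTG, which are forms of the Myb recognition sequence. Such a match was found in 2 of the 24 oligos. One of them, the forward oligo of CG15601-HUWE1, is included with the match in capitals. The other, the forward oligo of CG32590-Flo2, is not shown. Over the transcript with 500 bp on both sides, the log2 ratio of CG15601 was 0.58 in replicate 1 and 0.53 in replicate 2. That of Flo2 was 0.002 and 0.25.
Upf2-CG1571 forward: accatggactaaacaggtgc
Upf2-CG1571 reverse: taaataagaaaatccaactaagcatattcg
swa-Marf forward: attctagtcggcaatgtacgg
swa-Marf reverse: agctgatgcgttttcaaatgg
DAAM-fs(1)N forward: agtgagcttggttttcgttttc
DAAM-fs(1)N reverse: accactttggaggtctttcc
hdm-Ykt6 forward: ttaaaacatttacagaaagttgcgc
hdm-Ykt6 reverse: acatatgcgtagtgtgtgtcag
CG14408-CG14411 forward: ccacacttttcactttccatcg
CG14408-CG14411 reverse: gccgtcgattccagtatttcg
CG15601-HUWE1 forward: gccgattgtaattcaCAGTTGtc
CG15601-HUWE1 reverse: tttacacagacgaaatgcaagc

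Whether the single male X differs from an autosomal arm was asked first. The log2 ratio of Myb over input did not separate the arms. The median X bin was at 0.06 in replicate 1 and 0.19 in replicate 2, and the median 3R bin was at 0.08 and 0.14. The difference, X minus 3R, was thus −0.02 and 0.06 in the respective replicates (mean 0.02 ± 0.06, SD, n = 2). This is smaller than its spread and changes sign between the replicates. On the first array design 2L minus 3L was −0.06 and −0.09, and 2R minus 3L was 0.07 in both replicates, so the difference between X and 3R was no larger than that between autosomal arms.

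**Figure D1:**
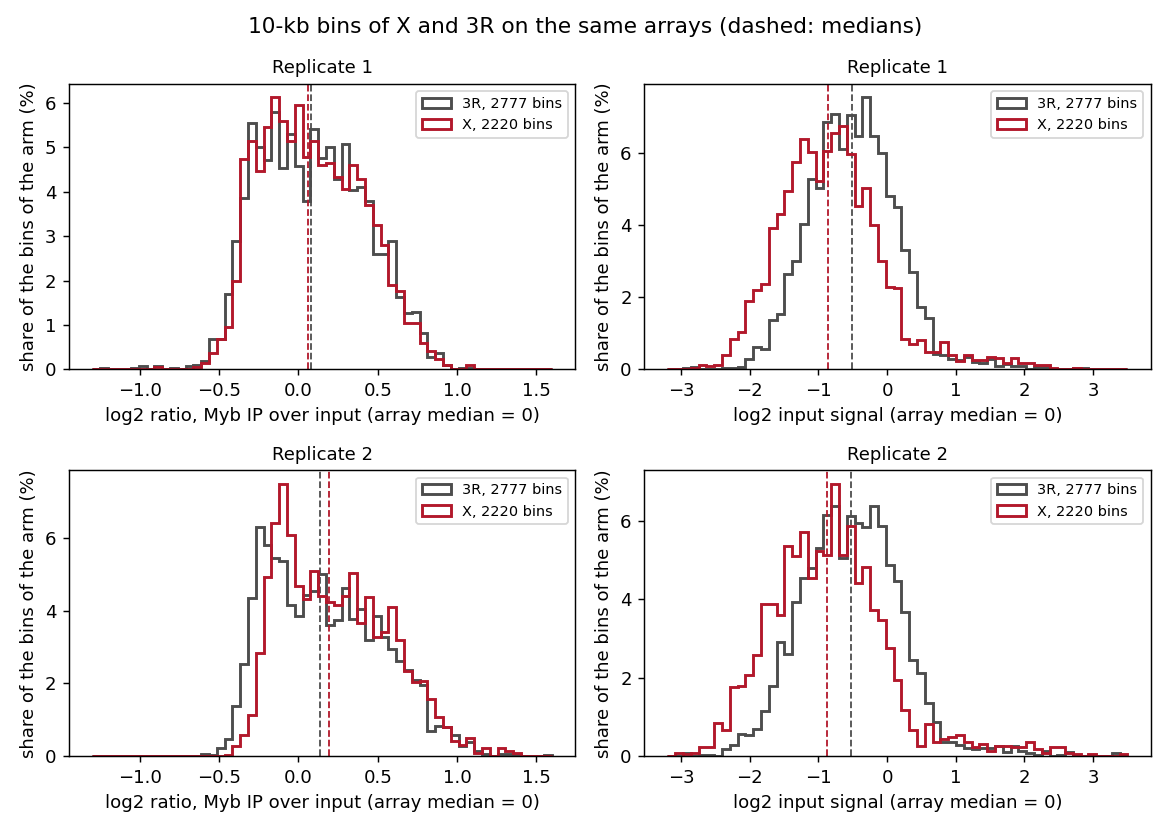
Histograms of the 10-kb bins of X (red, 2220 bins) and 3R (gray, 2777 bins), with the log2 ratio (Myb over input) on the left and the log2 input signal on the right, for each replicate. The y axis is the share of the bins of each arm in percent and dashed lines are medians, which are within 0.06 of each other for the ratio and about 0.34 apart for the input.

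The input signal, in contrast, was lower on X. The median X bin was at −0.85 in replicate 1 and −0.87 in replicate 2, and the median 3R bin was at −0.51 and −0.53. X minus 3R was −0.345 and −0.344, which is 0.788 of the 3R level, and both replicates had the same sign (exact sign-flip permutation test, two-sided, p = 0.5, the smallest p that 2 replicates allow). The immunoprecipitate was lower by a similar amount, at −0.37 and −0.31. A signal in proportion to copy number would be at −1 for a single X against a pair of autosomes, so the direction is that of a male X and the size is smaller. Input differed by 0.09 and 0.13 between 2L and 3L, and chromosome 4, which is present as a pair, differed from 3R by −0.59 and −0.60. Input level on these arrays thus differed between sequences of equal copy number as well. Whether probe base composition has a part in this was not tested, since probe sequences were not used here.

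Bins were tested against 0 with limma across all 7451 bins of the second design. The fit gave every bin the same standard error of 0.0972, so a bin was called when its mean lay beyond about 0.22 in either direction. By this rule 924 X bins (41.6%) were high and 242 (10.9%) were low, where 28.5% and 19.1% of all bins of the design were called. On 3R the shares were 39.7% high and 17.8% low. The background over all bins includes unplaced and heterochromatic scaffolds, of which 2.54% were high with chromosomes 3R, X and 4 left out, so 3R is the closer comparison for X. All but 1 of the high X bins and all of the low X bins had the same sign in both replicates. The choice of 0 matters for the low bins. When the mode of each array, which lies below its median, was used as 0, 31 X bins (1.40%) and 4.36% of the 3R bins were low. With 0 at the 3R median, 488 X bins (22.0%) and 27.4% of the 3R bins were low. With each arm centred on its own median, which removes a difference in level between the arms, 610 X bins (27.5%) were low and the share on 3R was close to that, at 28.6%.

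Without a test, 1208 X bins (54.4%) were above 0 in both replicates and 652 (29.4%) below 0 in both, where 39.1% and 42.7% of all bins of the design were. On 3R the shares were 53.7% and 34.6%. In the remaining 360 X bins the replicates disagreed in sign, and 309 of these were below 0 in replicate 1 and above 0 in replicate 2. Across X bins, which are not independent replicates and share 2 arrays, Pearson's r between the replicates was 0.861 for the log2 ratio and 0.991 for the input level. The typical difference between the replicates, a median of 0.163 on X, was larger than the 0.115 on 3R. It includes a shift of the whole arm between the replicates. The median bin was at 0.06 in replicate 1 and 0.19 in replicate 2 on X, and at 0.08 and 0.14 on 3R.

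**Figure D2:**
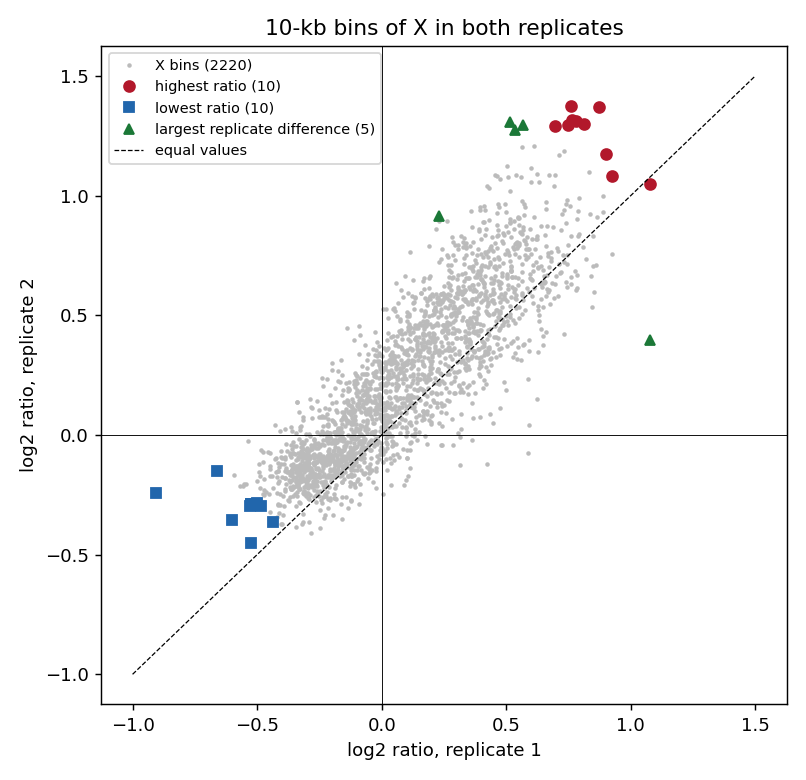
Log2 ratio of each X bin in replicate 1 (x axis) and replicate 2 (y axis), both centred on the array median. The 10 highest bins (red) mostly lie above the dashed line of equal values, with replicate 2 between 1.05 and 1.38 and replicate 1 between 0.70 and 1.08, and the bins of largest replicate difference (green) include 1 far below it.

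At the resolution of probes, Myb-bound regions were called on the mean of both replicates as runs of at least 4 significant probes. X held 3433 regions over 22.4 Mb, or 153 per Mb, and 3R held 3649 regions, or 131 per Mb, for a ratio of 1.17. X regions were shorter, with a median of 664 bp against 726 bp, and they covered 15.7% of X and 14.7% of 3R. On X their median log2 ratio was 0.81 for replicate 1 and 0.99 for replicate 2, with 3422 above 0 in both. A region fell in 54.9% of X bins, where 53.5% of the bins of 3R, X and 4 held one. The ratio of region densities was 1.10 in replicate 1 alone and 1.21 in replicate 2 alone, and with the null fitted for each arm it fell to 1.03. Runs of low probes were rarer on X, with 251 (11.2 per Mb) against 511 on 3R (18.3 per Mb). These counts are given only for a null shared by the arms, with its spread taken from the low side itself. They cannot show that X is less depleted.

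Along X, Myb signal was highest between 1 and 3 Mb from the telomeric end and lowest next to the centromere. The step from 1 to 2 Mb had a median of 0.34 in replicate 1 and 0.35 in replicate 2, and 70 of its 99 bins were high and none was low. The step from 2 to 3 Mb followed at 0.22 and 0.33. The telomeric step, from 0 to 1 Mb, was at 0.19 and 0.21, which in replicate 1 was above and in replicate 2 below the median of the bins between 1 and 20 Mb (0.08 and 0.24). Between 3 and 20 Mb the replicates placed most steps around or above 0, with replicate 2 higher in all of them. The step from 12 to 13 Mb was the only one of these below 0 in both, at −0.11 and −0.04, with 26 low bins of 100.

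Beyond 20 Mb, toward the centromere, the median of 235 bins was −0.15 in replicate 1 and −0.09 in replicate 2. High bins made up 18.7% there and low bins 27.7%, against 44.0% and 9.32% of the 1889 bins between 1 and 20 Mb, and regions covered 6.35% of a bin on average against 17.0%. Input was higher in this proximal stretch (−0.45 and −0.46) than between 1 and 20 Mb (−0.90 and −0.94), and the part of input level in the drop was not tested. The last step, from 22 Mb to the end of the placed sequence, had the lowest medians of X in both replicates, −0.24 and −0.13, and 2 high bins of 42.

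**Figure D3:**
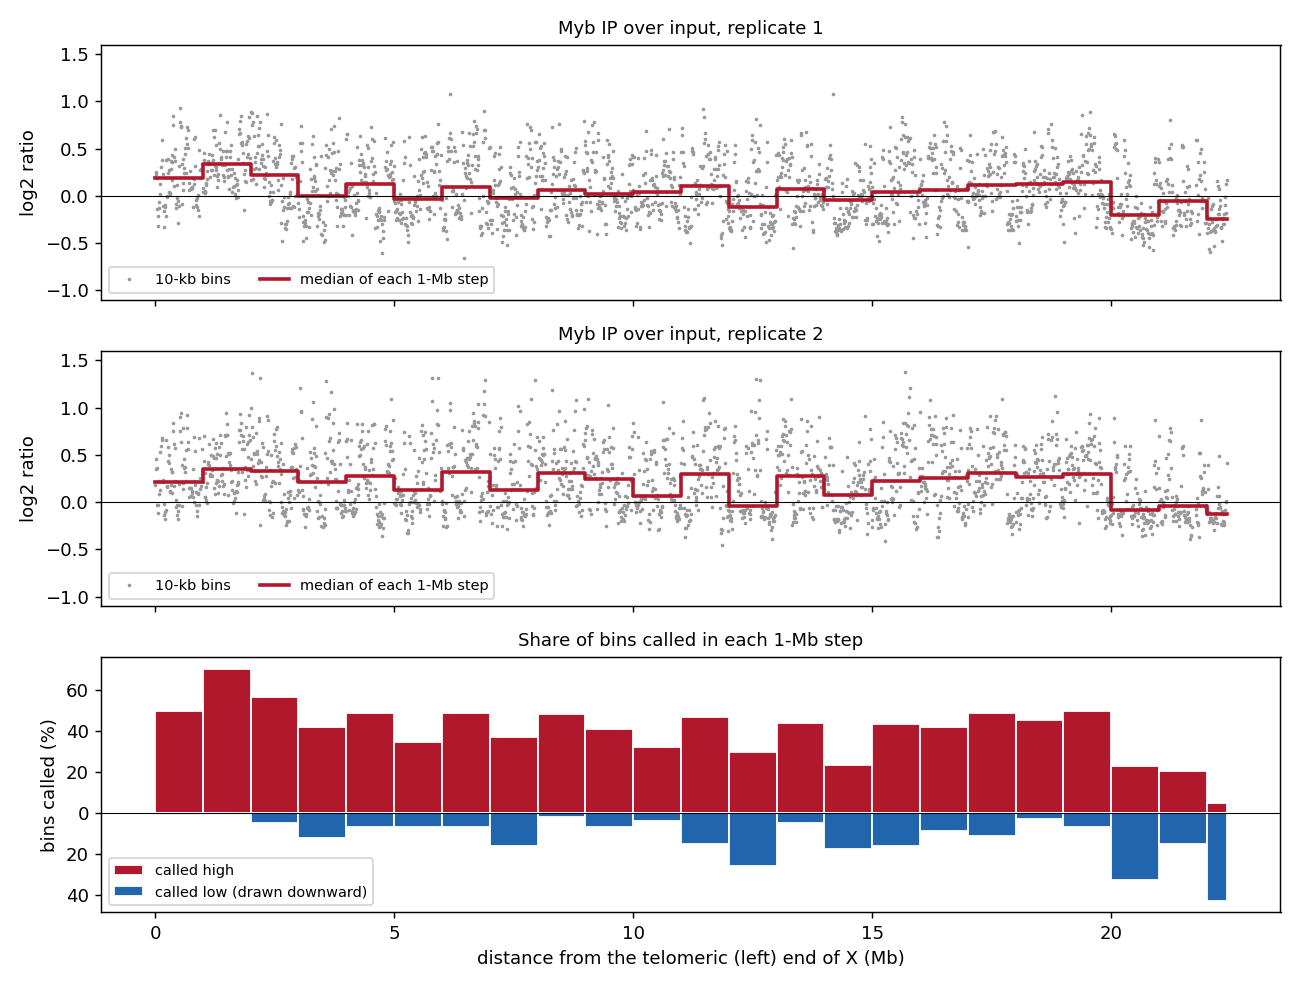
Log2 ratio of the X bins (gray points) and the median of each 1-Mb step (red line) against the distance from the telomeric end in Mb, for replicate 1 (top) and replicate 2 (middle), and below them the percentage of bins called high (red, upward) and low (blue, downward) in each step. The step from 1 to 2 Mb stands at 0.34 and 0.35 and the steps beyond 20 Mb lie below 0 in both replicates.

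Neighboring bins resembled each other. The correlation of the log2 ratio with that of the adjacent bin was 0.67 in both replicates, and it fell below 0.2 at a distance of 60 kb in replicate 1 and 50 kb in replicate 2, against 70 kb in both on 3R. The longest stretch of X with every bin above 0 in both replicates spanned 520 kb (chrX:1100001-1620000, mean 0.37 and 0.41) and includes fs(1)N, which is needed for the eggshell, and br, an ecdysone-response transcription factor. Uninterrupted high bins reached 200 kb at 2 places. One (chrX:1900001-2100000, 0.52 and 0.60) holds the complex I gene ND-B14.5A, and the other (chrX:15590001-15790000, 0.52 and 0.75) holds mRpL3, a mitochondrial ribosomal protein gene, and Myb itself. The longest stretch with every bin below 0 in both replicates spanned 180 kb (chrX:14180001-14360000, mean −0.30 and −0.16). Uninterrupted bins called low, which were fewer than those called high, made shorter stretches. The longest were 60 kb and lay at chrX:20630001-20690000 (−0.44 and −0.24), chrX:20740001-20800000 (−0.38 and −0.17) and chrX:22130001-22190000 (−0.38 and −0.20), all within the proximal stretch. These stretches were picked by their length, so they are given without a test.

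Log2 ratio and input level were linked across X. In the 555 X bins with the lowest input, the median log2 ratio was 0.37 in replicate 1 and 0.59 in replicate 2, and regions covered a median of 36.9% of a bin. In the 555 with the highest input the ratio was −0.14 and −0.08 and the median coverage was 0. The correlation across X bins was −0.46 in replicate 1 and −0.67 in replicate 2, which is open to the shared input signal in both quantities. With the input taken from the other replicate it was −0.48 and −0.63. Input levels of the replicates correlated at 0.991, so this swap removes the noise of single arrays and not what both inputs share. On 3R the correlation within an array was −0.57 and −0.71. Bins with low input were therefore the bins of high log2 ratio on both arms, but not of high immunoprecipitate signal. In the 555 X bins with the lowest input the log2 immunoprecipitate was −1.39 in replicate 1 and −1.32 in replicate 2. In the 555 with the highest input it was −0.18 and −0.11. On 3R it was −0.91 in both replicates in the 695 bins with the lowest input, and −0.004 and 0.05 in the 694 with the highest. How far low input alone sets the high ratios was not tested.

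Because X has lower input than 3R, the arms were also compared at equal input, a comparison added after the data were examined. In 12 classes of input level, each 0.25 wide on the log2 scale, X lay below 3R by a weighted mean of −0.14 in replicate 1 and −0.10 in replicate 2. All 7 classes with input below −0.25 had X lower in both replicates, for example −0.20 and −0.16 between −1 and −0.75. From 0 upward the order turned, and between 0.25 and 0.5 X was higher by 0.14 and 0.19 in 33 X bins. With each bin set against the median of its input class, 430 X bins (19.4%) were high and 599 (27.0%) low, against 32.3% and 14.3% on 3R. The similar shares of high bins on X and 3R thus held for the ratio as measured and not at equal input. The ratio fell with input on both arms, and X input was lower. Arms with the same ratios would therefore also differ at equal input, so this comparison cannot show a difference in Myb binding.

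**Figure D4:**
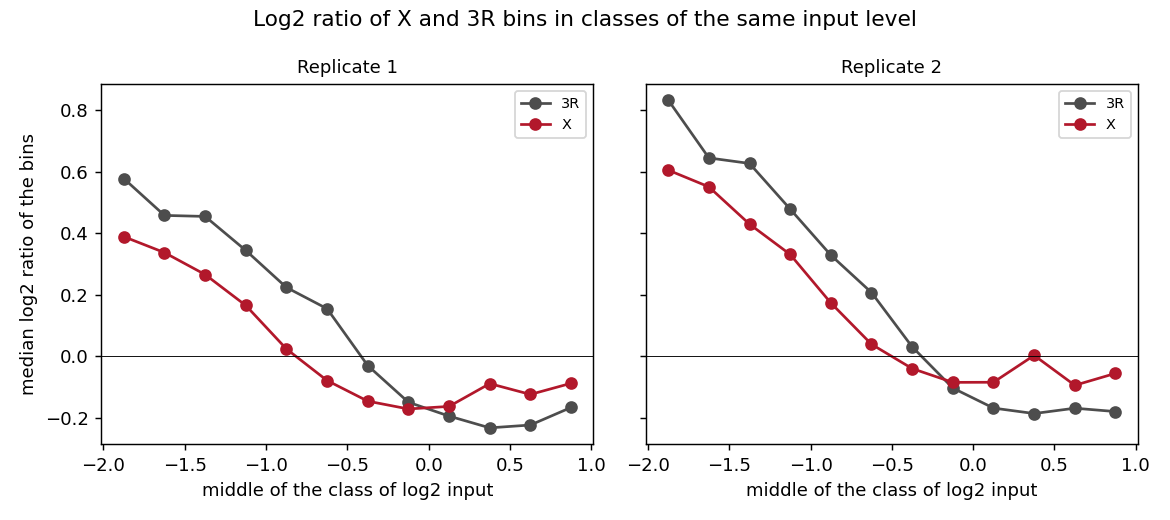
Median log2 ratio of X bins (red) and 3R bins (gray) in classes of the same log2 input level (x axis, middle of each 0.25-wide class), for both replicates. X lies below 3R in the 7 classes under −0.25 and above it in the 4 classes from 0 to 1.

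The 10 highest X bins were between 0.99 and 1.12 in mean log2 ratio, and regions covered 66.2% to 100% of each. Regions were called from the same ratios that ranked the bins. Their coverage of the highest and lowest bins is therefore not a separate readout. The highest, chrX:2030001-2040000, had 0.87 in replicate 1 and 1.37 in replicate 2 (1.12 ± 0.35, SD), with regions over 96.5% of it, and it overlaps D2hgdh, a mitochondrial dehydrogenase gene. Next came chrX:15690001-15700000 at 0.76 and 1.38. The bin chrX:6170001-6180000 was close in both replicates, at 1.08 and 1.05 (1.06 ± 0.02, SD). Then followed chrX:12560001-12570000 (0.81 and 1.30), chrX:2190001-2200000 (0.78 and 1.31) and chrX:5920001-5930000 (0.77 and 1.32). Replicate 2 was the higher in 9 of the 10, and the SD between replicates reached 0.44, more than the pooled error of the fit allows for. The last of the 10 were chrX:6870001-6880000 (0.90 and 1.17), chrX:12640001-12650000 (0.75 and 1.29), chrX:11460001-11470000 (0.92 and 1.08) and chrX:6890001-6900000 (0.70 and 1.29). All 10 had low input, from −1.19 to −2.70 over both replicates.

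The lowest bin, chrX:2200001-2210000, adjoins one of the highest. Its log2 ratio was −0.90 in replicate 1 and −0.24 in replicate 2, and its input, −2.78 and −2.82, was also among the 3 lowest of X. The signal there was near the background of the array. Within the bin, the probes of chrX:2200057-2202016 were still high (0.61 and 0.89), and those of chrX:2204046-2206005 were at −1.64 and −0.75 with an input of −4.51 and −4.68. In that stretch the input was well above background at 51.7% of probes in replicate 1 and 48.3% in replicate 2. With spots near background left out, the mean of the bin was −0.16 and it was no longer called (limma adjusted p = 0.158), and in the deposited log2 table it was −0.20 (adjusted p = 0.113). The bin chrX:6460001-6470000 (−0.66 and −0.15, input −2.16 and −2.12) likewise lost its call, at −0.08 (adjusted p = 0.510) and −0.13 (adjusted p = 0.290).

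The other 8 of the 10 lowest bins had input near or above the array median, from −0.40 to 0.91, no Myb-bound region and at least 97.8% of probes above background. The bin chrX:11850001-11860000 was at −0.52 and −0.45 and chrX:4740001-4750000 at −0.60 and −0.36. Of the rest, 3 lay beyond 20 Mb, at chrX:20640001-20650000 (−0.43 and −0.36), chrX:20670001-20680000 (−0.52 and −0.29) and chrX:22140001-22150000 (−0.53 and −0.30). For the bin chrX:7360001-7370000 (−0.52 and −0.29), the next gene placed beyond it is ct, the cut gene of the wing margin. It lies at chrX:7503449-7568650, and genes not placed here may lie between. The 10 were completed by chrX:18060001-18070000 (−0.50 and −0.28) and chrX:5280001-5290000 (−0.49 and −0.30).

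Very high input marked a few bins. Of the 3 highest, 2 lay in the mucin gene Muc14A, chrX:15910001-15920000 with input 2.74 and 3.46 and chrX:15940001-15950000 with 2.29 and 2.93, and the third was the telomeric bin, chrX:1-10000, with 2.38 and 2.81. The log2 ratios of the Muc14A bins were −0.16 and −0.29 for the first, which was called low (adjusted p = 0.0429) but not under 5 other settings, and 0.02 and −0.15 for the second. The telomeric bin was above 0 in both replicates, at 0.20 and 0.18, with regions over 10.9% of it. It was not called, but it was called high with mode centring (0.31, adjusted p = 0.00525), normexp (0.25, adjusted p = 0.00960), loess (0.23, adjusted p = 0.00625) and within input classes (0.26, adjusted p = 0.00153). The bins of lowest input, besides chrX:2200001-2210000, were chrX:12630001-12640000 (input −2.73 and −2.999, ratio 0.46 and 1.08) and chrX:16260001-16270000 (input −2.65 and −2.97, ratio 0.24 and 0.78).

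In 4 of the 5 bins with the largest difference between the replicates, replicate 2 was the higher. These were chrX:5780001-5790000 (0.51 and 1.31), chrX:3580001-3590000 (0.53 and 1.28), chrX:7950001-7960000 (0.57 and 1.29) and chrX:17470001-17480000 (0.23 and 0.91). In all 4 the input was lower in replicate 2, as in the first of them, with −1.91 and −2.49. The last of the 4 lost its call within input classes, at 0.03 (adjusted p = 0.747). The exception was chrX:14170001-14180000, which was at 1.08 in replicate 1 and 0.39 in replicate 2, with input of 1.51 and 2.49.

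X-linked genes were measured over their transcripts with 500 bp on both sides. The table that places them is held in part and is ordered by change of expression in Myb mutants, so the 309 X genes placed are not a sample of all X genes. Of these, 236 (76.4%) were high and 3 low by limma across the 740 gene windows of 3R, X and 4, where 67.3% were high and 1.22% low. Of the placed 3R genes alone, 62.6% were high. The median over all placed X genes was 0.45 in replicate 1 and 0.53 in replicate 2, and over 3R genes 0.38 and 0.36. Median input was −1.51 for the X genes and −0.95 for the 3R genes, and its part in the difference was not tested. Of the 309, 275 were above 0 in both replicates, against 84.1% of all 740 windows. Adjacent genes such as Klp3A and Zw10 share probes in their windows.

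Regulators of the X and of Myb target genes came first. The window of mof (chrX:5768302-5770785), which encodes the acetyltransferase of the dosage compensation complex, was at 0.79 in replicate 1 and 0.81 in replicate 2. Myb (chrX:15749100-15751137) was at 0.76 and 0.87, and mip130, another subunit gene of dREAM, at 0.68 and 0.59. All 3 were high (adjusted p of 0.000599, 0.000599 and 0.00109) and all held a Myb-bound region. Of the 309 placed X genes, 76.4% were high and 249 held a region.

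All 5 genes listed under DNA replication were high, where 76.4% of the placed X genes were. Their median was 0.57 in replicate 1 and 0.65 in replicate 2. The replicative helicase genes Mcm6 (0.80 and 0.65), Cdc45 (0.51 and 0.72) and Mcm3 (0.51 and 0.54) encode parts of one complex, and Mcm6 was above Mcm3 in both replicates while Cdc45 overlapped with both. The list also holds mxc, which acts in histone gene expression, at 0.81 and 0.65. The gene mus101, which encodes a TopBP1-related replication and checkpoint protein, was at 0.57 and 0.65.

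All 9 genes listed under mitosis were high as well, from 0.40 to 1.05 in mean, where 76.4% of the placed X genes were high. Zw10 (chrX:2498336-2499793), a kinetochore protein of the spindle checkpoint, had the highest value of all the listed genes, at 1.07 and 1.03 (1.05 ± 0.03, SD, adjusted p = 0.000566). The adjacent kinesin gene Klp3A was at 0.75 and 0.74. The augmin subunit gene dgt4 was at 1.07 and 0.84, and over the transcript without its flanks at 0.29 (adjusted p = 0.0712), so the higher probes lay beside the transcript. Ndc80, an outer kinetochore gene, was at 0.77 and 0.49. Of the anaphase-promoting complex genes, APC7 was at 0.42 and 0.83 and shtd at 0.52 and 0.52. The lowest were mud (0.38 and 0.54) and pigs (0.38 and 0.42), which both passed the test.

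Genes with no known tie to the cell cycle had values in the same range. All 8 housekeeping genes were high, from 0.37 to 0.74 in mean, where 76.4% of the placed X genes were high. Among them were Trxr-1 (thioredoxin reductase) at 0.89 and 0.60 and Shmt (serine hydroxymethyltransferase) at 0.69 and 0.79. The gene mRpL3 was at 0.74 and 0.62 and Pdha (pyruvate dehydrogenase) at 0.51 and 0.84. The lowest, Gclc, a gene of glutathione synthesis, differed between replicates at 0.61 and 0.14.

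Of 10 genes for the female germline and meiosis, which are studied here in male discs, 9 were high, where 76.4% of the placed X genes were. The synaptonemal complex gene corolla was at 0.55 and 0.95, swa, which acts in localizing bicoid mRNA in the egg, at 0.85 and 0.52, and hdm, a meiotic recombination gene, at 0.55 and 0.57. The overlapping genes mei-217 (0.39 and 0.53) and mei-218 (0.42 and 0.58) have windows that share probes and are not separate measurements. The oligo sites at swa, hdm and fs(1)N above belong to this group, and fs(1)N was at 0.62 and 0.22. The meiotic recombination gene vilya, at 0.40 and 0.29 over 25 probes, was called, but not with spots near background left out (0.24, adjusted p = 0.0659), with normexp (0.15, adjusted p = 0.159) or over the transcript without its flanks (0.17, adjusted p = 0.301). The nuclear lamina gene fs(1)Ya did not pass, at 0.24 and 0.08 (adjusted p = 0.184).

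Genes for wing development and signaling had a median of 0.18 in replicate 1 and 0.22 in replicate 2, below that of all placed X genes. Of the 15, 8 were high, against 76.4% of the placed X genes, and none was low. The Hedgehog co-receptor gene boi was the highest at 0.65 and 0.70, followed by svr (a carboxypeptidase gene) at 0.39 and 0.44 and the zinc finger gene peb at 0.47 and 0.33. The JAK/STAT ligand genes upd2 (0.43 and 0.20) and upd3 (0.28 and 0.34) passed the test, and so did br (0.22 and 0.34). Values near 0 were found for ct, the wing margin homeobox gene (−0.09 and 0.12 over a transcript of 65202 bp), m, which shapes the wing cuticle (0.09 and −0.04), and f, the actin crosslinker forked (0.01 and 0.14). The proneural gene ase of the achaete-scute complex was at 0.16 and 0.10 and did not pass. Long transcripts average sites and the sequence between them, and 4 regions were called in the window of ct and 12 in that of br despite their low means.

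The list of cuticle, mucin and serum protein genes, which also held tty, a gene of another role, gave the lowest median. It was 0.06 in replicate 1 and 0.08 in replicate 2. Where 76.4% of the placed X genes were high, 1 of these 6 was. That was Peritrophin-A (0.42 and 0.17, adjusted p = 0.0379), a chitin-binding protein gene. Muc14A was at −0.16 and −0.23, the larval serum protein gene Lsp1alpha at 0.21 and −0.16, and the cuticle genes Cpr11A at −0.27 and 0.04 and Cpr12A at 0.01 and 0.13. With 0 at the array median, no list had a member called low. With 0 at the 3R median, Muc14A was called low (−0.27, adjusted p = 0.0470), and br, upd2, upd3, mnb, fs(1)N, Gclc and Peritrophin-A were no longer called high. Without flanks br, upd3 and Peritrophin-A lost their calls as well, and in the deposited log2 table br, mnb, Gclc and Peritrophin-A did. With 0 at the mode, dy, ase, hiw, fs(1)Ya and tty were called high in addition.

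**Figure D5:**
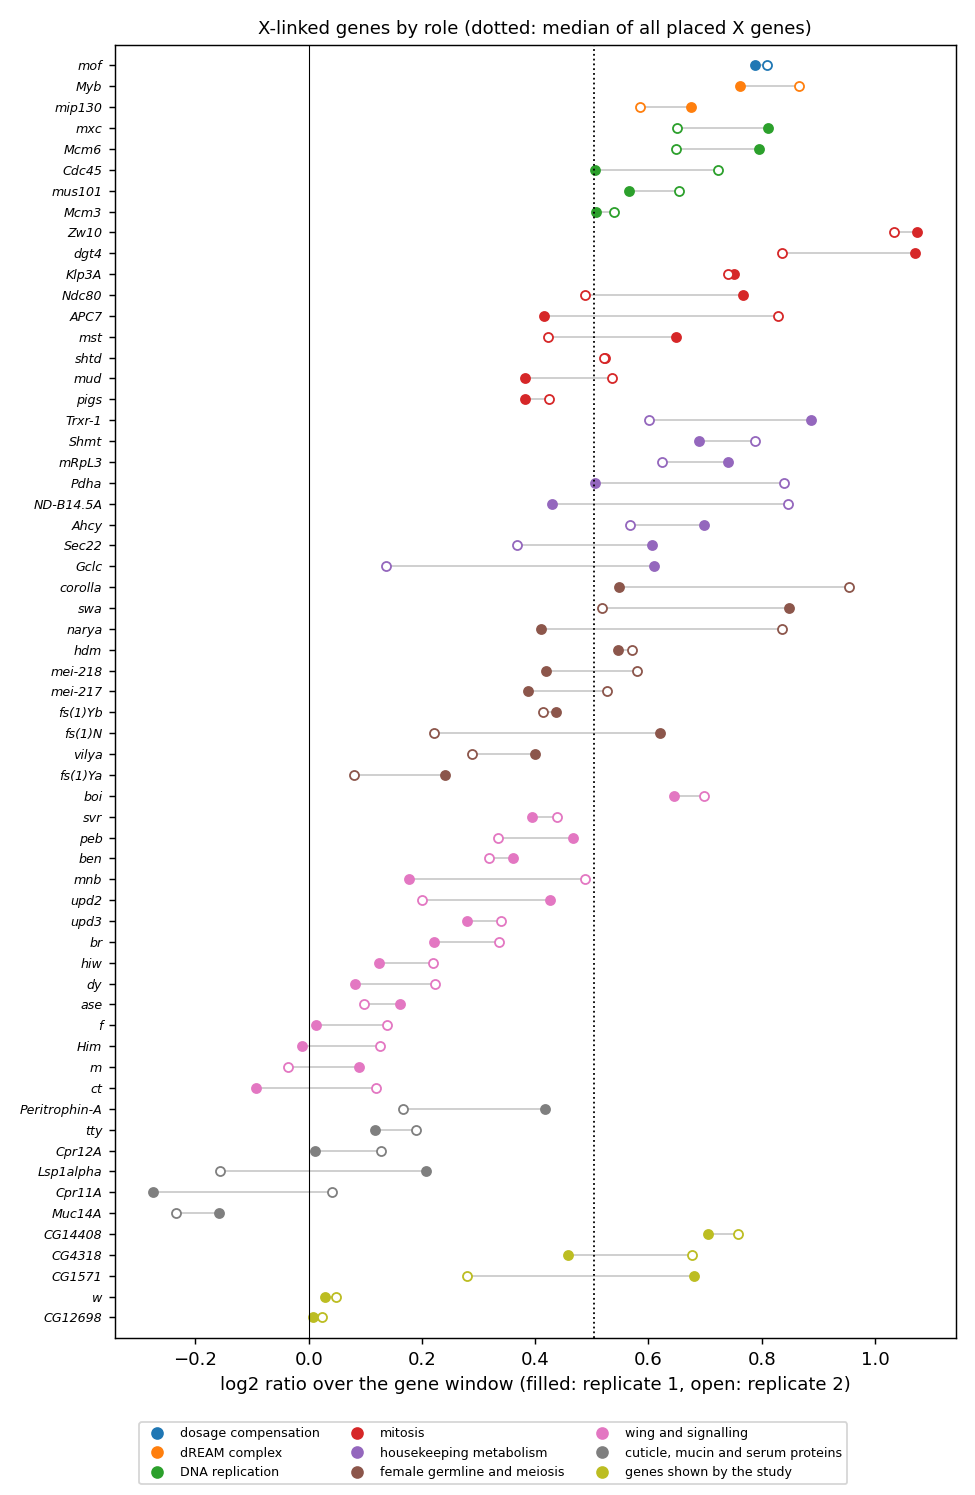
Log2 ratio over the window of each of 61 X-linked genes (y axis), by role in color, with replicate 1 as filled and replicate 2 as open points and a line between them. The dotted line is the median of all 309 placed X genes (0.50), and most genes for replication, mitosis and metabolism lie near or to the right of it while most wing, cuticle and mucin genes lie to the left.

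Input level moved with these lists. Its median was −1.78 for mitosis, −1.67 for DNA replication, −1.55 for housekeeping and −1.46 for germline genes, against −0.81 for wing and signaling and −0.80 for cuticle and mucin genes, and its part in the order of the lists was not tested. In the last list, 5 genes with no shared role, CG14408 was at 0.71 and 0.76 and CG4318 at 0.46 and 0.68, while CG1571 at 0.68 and 0.28 differed between replicates. The window of w, the white gene, was at 0.03 and 0.05, and that of CG12698 at 0.01 and 0.02. Each of the 5 still held a Myb-bound region, as did 249 of the 309 placed X genes. A window mean near 0 thus did not mean a lack of bound probes.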

How the data were processed

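The authors deposited scanner output of 2-color arrays, with intensities that, per the file headers, Agilent Feature Extraction 11.5.1.1 had corrected for background and spatial trend and scaled by a linear dye factor. The deposited log10 ratio of a spot is log10 of processed Cy5 over Cy3 intensity, and it was the same as the ratio computed here within 0.001 for at least 99.5% of spots. A deposited table of log2 values, whose normalization is not stated, was used as an alternative. Here, log2 Cy5 over Cy3 was taken for spots without outlier flags, averaged per probe, centred on each array's median and averaged in 10-kb bins (at least 50 probes). Bins were fitted with an intercept-only model in limma 3.58.1 (R 4.3.3), two-sided, with Benjamini-Hochberg adjustment over all bins of the design and a threshold of 0.05. The fit and the region rule were tested on simulated data. Regions needed a mean p below 0.05 of a probe and a neighbor within 1000 bp, and at least 4 such probes at gaps up to 300 bp. The null was centred on the mode of a histogram (0.01 steps, smoothed over 21), which is flat at its top. Gene windows were fitted with limma in the same way, a test added after the data were examined. Named bins are the 10 highest and 10 lowest of the same sign in both replicates, 3 at each end of input level and 5 with the largest replicate difference. Genes were placed by a transcript table of the study, read as dm3. Members and lists were chosen with earlier results of these data known. Arrays of the first design gave only arm medians. Alternatives changed centring, spot and bin filters, background correction, normalization and region thresholds. Python 3.11.15 was used.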

Additional observations from a re-analysis of the deposited data

How the results depend on the processing

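No paired analysis was possible because there is 1 condition, and X and 3R are compared within each array. The alternative by GC content of the probes was not run. Centring on the mode or on the 3R median shifts a whole array, so neither could change X minus 3R log2 ratio. This difference stayed within its replicate SD of 0.06 under 13 other settings, these included, and in bins without a region. It moved only within input classes, to −0.12. From single replicates it was −0.02 and 0.06, with input at −0.345 and −0.344, immunoprecipitate at −0.37 and −0.31, bins above 0 at 1259 and 1517, and the region density ratio at 1.10 and 1.21. X minus 3R input kept its sign and was −0.30 with well-measured spots only, −0.35 with outlier spots kept, −0.39 with bin medians, −0.36 with 100 or more probes, −0.37 in 5-kb bins, −0.30 in 50-kb bins, −0.35 before dye normalization, −0.28 with normexp and −0.38 without 1 Mb at each end. Of the X counts, high bins moved to 430 within input classes. Low bins moved from 242 to 31 with mode centring, 488 with centring on 3R, 417 with loess, 610 with each arm centred on itself, 599 within input classes, 383 with the spread fitted as a trend, and 310 of 4422 bins at 5 kb. The region density ratio was 1.06 with normexp and 1.03 with a null per arm. Of 30 named bins, 4 lost their call and 1 gained one under some setting, and of 61 genes 9 lost and 6 gained one. None reversed under these settings. With 2 replicates and a common error for all bins, single bins near 0.22 are the least certain.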
